A study of Mus musculus with 8 samples.

Results

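The effect of an siRNA against MLL on the transcriptome of activated macrophages was measured as a single array against a single array. Of the 8 Illumina mouse arrays of the set, 2 entered this comparison: the array of siMLL macrophages treated with Kdo2 lipid A (KLA) for 6 h and the array of macrophages that received a scrambled siRNA (siCtrl) and the same treatment. They were chosen by their labels alone. All cells were thioglycollate-elicited peritoneal macrophages of C57BL/6 mice, so every group had been recruited by the same irritant before transfection, and the labels give neither the sex, age and number of the mice nor the time between transfection and KLA. The other arrays were siMLL untreated (3 arrays, numbered as replicates), siCtrl untreated (1), siGABP untreated (1) and siGABP KLA (1), where siGABP is an siRNA against the transcription factor GABP. With 1 array a side, the KLA difference has no replicate check and no p-value is given. The 3 untreated siMLL arrays served as a yardstick for the spread between arrays, but whether these stem from different mice or cultures is not stated. In bulk RNA, fewer cells of a type and less RNA per cell cannot be told apart.

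Toll-like receptor 4 (TLR4) recognises the lipid A part of bacterial lipopolysaccharide, and KLA is a pure ligand of this receptor. Its adaptors activate NF-κB, interferon regulatory factors and AP-1, which switch on cytokine genes within an hour and, through secreted interferon, a later wave of antiviral genes. MLL proteins are histone methyltransferases of the trithorax family. In complexes with WDR5, RBBP5, ASH2L and DPY30 they methylate histone H3 at lysine 4, the mark of active promoters. The comparison asks which transcripts of the activated state stand at another level when MLL has been targeted.

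Knockdown itself could not be examined. No probe was paired with Kmt2a, the gene of MLL1, which is therefore not analysed here, and which MLL gene the siRNA was directed at is not stated in the labels. The paralogue Kmt2b had an intensity of 218 on the siCtrl KLA array and 203 on the siMLL KLA array, a difference of -0.12 on the log2 scale, with 231, 236 and 218 on the 3 untreated siMLL arrays and 241 on the untreated siCtrl array. Of the 25 genes listed for H3K4 methyltransferase complexes, which include linked factors outside them such as Dot1l, 17 were on the array. All 17 passed the filter on dim probes. None of them differed by 1.5-fold. Differences ran from -0.31 for Setd1a, a related methyltransferase (301 to 249.96), to 0.37 for Dpy30, a core subunit (658 to 842), and Wdr5, the scaffold subunit, stood at 0.31 (251 to 302). Among defining macrophage markers, Adgre1, a macrophage surface receptor, had intensities of 3664 to 3582 from the siCtrl to the siMLL KLA array, Lyz2 (lysozyme) 23069 to 26101, and Spi1 (PU.1) 953 to 832, so all 3 were bright on both. Itgam, an integrin subunit, was dim on both (173 to 152), and Cd68 and Csf1r are not analysed here.

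Differences below are siMLL minus siCtrl on the log2 scale after background correction and normalisation, and intensities are the deposited values. A pair written as 1 intensity to another gives the siCtrl KLA array first and the siMLL KLA array second, and a decimal beside it is the log2 difference. Across 8793 genes past the filter, 72 stood at least 1.5-fold higher (0.819%) and 31 at least 1.5-fold lower (0.353%) in siMLL than in siCtrl macrophages after KLA, 103 in all (1.17%). At 2-fold, 5 were higher and 5 lower. The counts at 1.5-fold were 46 and 25 without background correction and 130 and 57 with a smaller offset of 16 in that correction. The median difference was -0.01 and its SD across genes was 0.203, and the 2 arrays correlated across genes at r = 0.9924. Between pairs of the 3 untreated siMLL arrays, 23, 5 and 6 genes passed 1.5-fold (0.262%, 0.0569% and 0.0682%) and none passed 2-fold. The 99th percentile of the size of a difference was 0.608 for the KLA pair and between 0.347 and 0.448 for the replicate pairs. The KLA pair thus spread more widely than arrays of 1 group did. With 1 siCtrl KLA array, a deviation of that array and a deviation of the siMLL KLA array cannot be told apart, so the siGABP KLA value is given beside many genes below.

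**Figure D1:**
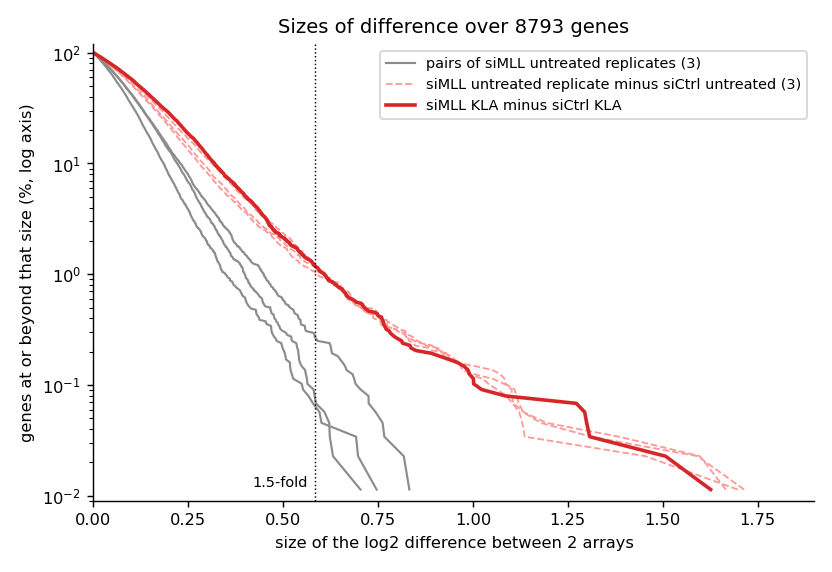
Share of the 8793 genes (log axis) whose difference between arrays is at least the size on the horizontal axis (log2). The line of the KLA pair lies above the lines of all 3 pairs of untreated siMLL arrays, and at 1.5-fold it holds 1.17% of genes against 0.0569% to 0.262%. The dashed lines, single untreated siMLL arrays against the untreated siCtrl array, run close to it.

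All 103 genes differed by more than the range of the 3 untreated siMLL arrays for the same gene. That bound alone is weak, as 4148 genes (47.2%) met it. The last gene inside the 1.5-fold limit was Echs1 at 0.59 and the first outside was Fdps at 0.58. On the lower side, Bcl2l11 at -0.60 was inside and Srp14 at -0.58 outside. The 2198 brightest genes gave 31 of the higher and 13 of the lower genes, and the 2199 dimmest gave 4 and 1.

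The 3 genes that stood highest in siMLL macrophages after KLA were Scd2, Ccl6 and Slc46a3. Scd2, a stearoyl-CoA desaturase that introduces the double bond of monounsaturated fatty acids, had an intensity of 1143 on the siCtrl KLA array and 3461 on the siMLL KLA array, 3.09-fold higher (log2 1.63). Without KLA it was 11789.8, 11514 and 11427 on the 3 untreated siMLL arrays and 5569.7 on the untreated siCtrl array, and the siGABP KLA array read 1750.3. Both siMLL KLA and siGABP KLA were thus above siCtrl KLA, and all KLA arrays were below all untreated arrays. Ccl6, a CC chemokine of rodents, was 297 on the siCtrl KLA array and 784 on the siMLL KLA array, 2.84-fold higher, with 1083, 1284 and 1063 on the 3 untreated siMLL arrays and 512 on the untreated siCtrl array and 578 in siGABP KLA. Slc46a3, a lysosomal membrane transporter, was 245 on the siCtrl KLA array and 553 on the siMLL KLA array, 2.45-fold higher, with 2402, 2527 and 2186 on the 3 untreated siMLL arrays and 818 on the untreated siCtrl array and 497 in siGABP KLA. For both genes every siMLL array was above the siCtrl array of the same treatment.

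**Figure D2:**
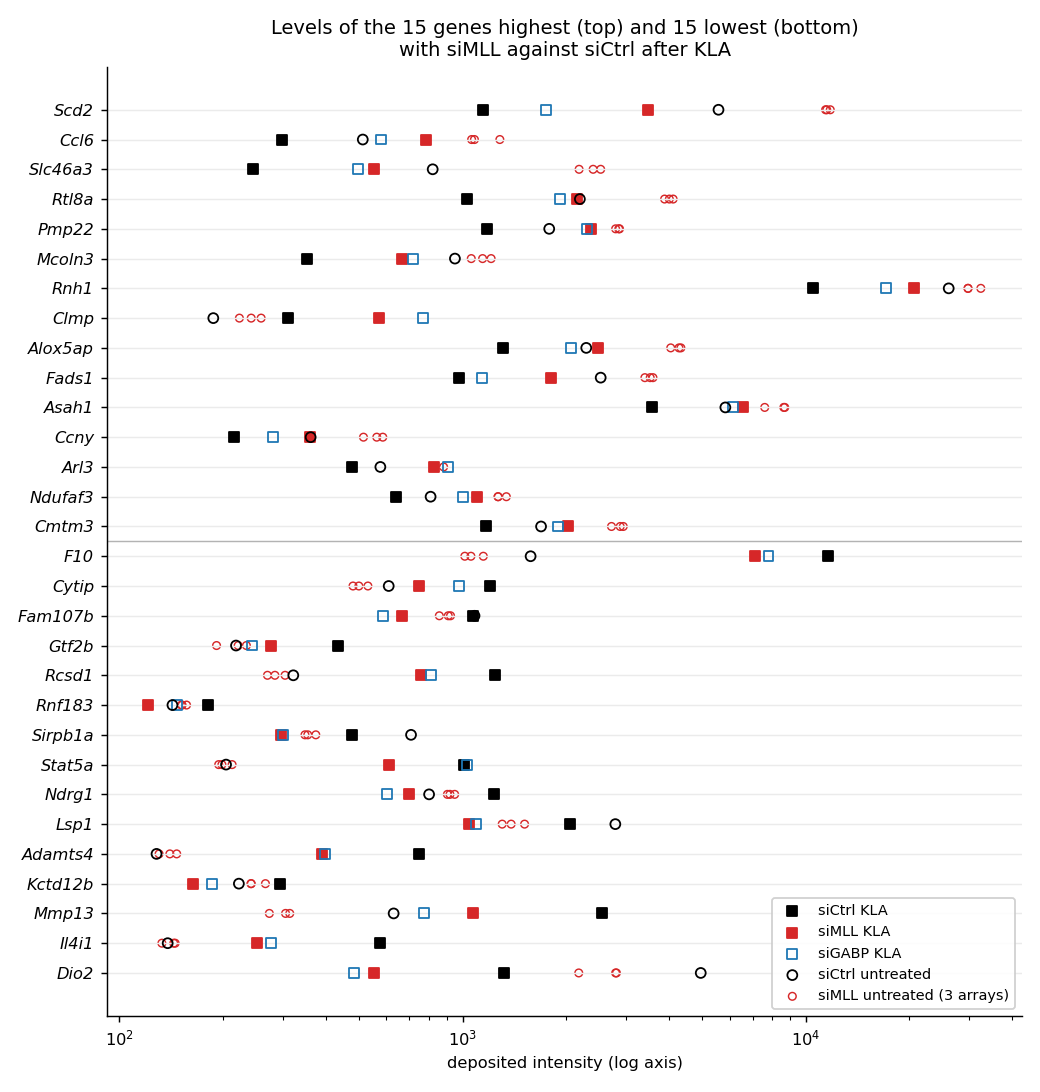
Intensity (log axis) of the 15 genes highest and the 15 genes lowest in siMLL KLA against siCtrl KLA, one point per array in the groups of the legend. Scd2 reads 1143 in siCtrl KLA and 3461 in siMLL KLA, and Dio2 reads 1322 and 554.

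Lipid synthesis genes were mostly higher. Of the 20 listed genes of fatty acid synthesis and desaturation, 18 were on the array and 14 measured, of which 12 were above 0 and 3 past 1.5-fold higher, with a median of 0.25 against -0.01 for all genes (48.4% of all genes were above 0 and 51.4% below). Beside Scd2, these were Fads1, the delta-5 desaturase of polyunsaturated fatty acids (979 to 1813, 1.88-fold; 1140.4 in siGABP KLA), and Fasn, fatty acid synthase (580.3 to 868, 1.53-fold; 507 in siGABP KLA). Scd1, the main stearoyl-CoA desaturase of many tissues, lay just under the limit at 0.56 (1037 to 1515). Fasn and Scd1 read lower in siGABP KLA than in siCtrl KLA, where Scd2 read higher.

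Of 25 listed genes of sterol synthesis and uptake, 21 were on the array and 20 measured, and 18 were above 0 with a median of 0.26. None passed 1.5-fold. The largest differences were those of Fdps, farnesyl diphosphate synthase, at 0.58 (1346 to 2001), Dhcr7, the last enzyme of cholesterol synthesis, at 0.57 (121 to 163) and Sqle, squalene epoxidase, at 0.55 (539 to 771), for which another probe gave 0.68. Fdft1, squalene synthase, and Srebf2, the transcription factor of the pathway, were the 2 genes below 0, at -0.27 and -0.20. Without KLA the medians of the same lists were 0.29 for the sterol and 0.19 for the fatty acid genes.

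Asah1, acid ceramidase, which splits ceramide in lysosomes, was 3553 on the siCtrl KLA array and 6559 on the siMLL KLA array (1.85-fold, 6128 in siGABP KLA), and another probe of the gene gave 1.005. Cers2, a ceramide synthase, was 1024 to 1761 (0.80) and Cerk, ceramide kinase, 820.4 to 1371 (0.76); these 2 were chosen after their values were seen. Untreated, the differences were 0.20 for Cers2, 0.51 for Asah1 and 0.09 for Cerk. Mcoln3, an endolysosomal cation channel, was 352 to 665 (0.99), and Lipa, lysosomal acid lipase, 2669 to 4468 (0.75). The list of lysosomal pump, hydrolase and transporter genes as a whole was not shifted upward: of 35 measured, 15 were above 0 and 20 below, with a median of -0.05, and the cathepsin genes Ctsk and Ctss were -0.50 and -0.46.

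Alox5ap, the protein that presents arachidonic acid to 5-lipoxygenase in leukotriene synthesis, was 1310.3 on the siCtrl KLA array and 2478 on the siMLL KLA array (1.91-fold, 2069 in siGABP KLA). Hpgds, the haematopoietic prostaglandin D synthase, was 260.04 to 407 (0.72). Of 14 measured eicosanoid genes these were the 2 past 1.5-fold, whereas 9 were below 0 and the median was -0.05. Ptgs2 (COX-2), the inducible enzyme of prostaglandin synthesis, was 852 to 641 (-0.43), the lowest of the list.

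Mitochondrial genes gave further higher members. Ndufaf3, an assembly factor of complex I, was 640.4 to 1101 (0.81), Uqcrc2, a core subunit of complex III, 1229.7 to 2059 (0.76), and Cox6a2, a complex IV subunit, 446 to 656 (0.59). In siGABP KLA they read 1004, 2105 and 464, so Uqcrc2 and Ndufaf3 were near the siMLL value and Cox6a2 near the siCtrl value. Of 69 measured oxidative phosphorylation genes 48 were above 0, with a median of 0.06 and 2 past 1.5-fold. Mitochondrial ribosomal proteins (43 of 69 above 0, median 0.02), cytosolic ribosomal proteins (26 of 71, median -0.05) and proteasome subunits (17 of 40, median -0.03) had none past the limit.

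The remaining genes among the 15 highest have varied roles. Rnh1, the ribonuclease inhibitor, was 10525 on the siCtrl KLA array and 20676 on the siMLL KLA array, and Pmp22, a tetraspan membrane glycoprotein, 1181 to 2367, with another probe at 0.96. Rtl8a, a gene derived from a retrotransposon Gag sequence, was 1031 to 2152. Clmp, an adhesion molecule of the CAR family (309 to 569.96), Ccny, cyclin Y (216 to 360.5), Arl3, a small GTPase of cilia (478 to 826), and Cmtm3, a chemokine-like MARVEL domain protein (1174 to 2036), differed by 0.81 to 0.96. Another probe of Ccny gave 0.52, under the 1.5-fold limit. In siGABP KLA, Rnh1 read 17128, Pmp22 2309.9 and Clmp 766. Il1a, encoding the cytokine interleukin 1 alpha, was 5460.3 to 9398 (0.79, 10127 in siGABP KLA), and Fcgr2b, the inhibitory Fc receptor, 1415 to 2293 (0.71).

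Of 16 measured genes of matrix proteases and their inhibitors, 6 were above 0 and 10 below, with a median of -0.04, and 2 were past 1.5-fold lower (Mmp13 and Adamts4) and 1 higher (Timp2, 0.59). Mmp13, a collagenase, was 2545 on the siCtrl KLA array and 1073 on the siMLL KLA array, 2.42-fold lower (log2 -1.27), with 274, 305 and 314 on the 3 untreated siMLL arrays and 629.8 on the untreated siCtrl array and 774 in siGABP KLA. Every siMLL array was below the siCtrl array of its treatment, and another probe gave -0.86. Adamts4, an aggrecan-cleaving metalloprotease, was 746 on the siCtrl KLA array and 389 on the siMLL KLA array, 2.002-fold lower, but 131, 147 and 140.3 on the 3 untreated siMLL arrays and 128 on the untreated siCtrl array, with 397 in siGABP KLA. Il4i1, a secreted L-amino acid oxidase, was 573 on the siCtrl KLA array and 252 on the siMLL KLA array, 2.46-fold lower, with 144, 145 and 133 on the 3 untreated siMLL arrays and 138 on the untreated siCtrl array and 276 in siGABP KLA. Adamts4 and Il4i1 were brighter on every KLA array than on any untreated array.

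Dio2, the deiodinase that activates thyroid hormone, was 1322 on the siCtrl KLA array and 554 on the siMLL KLA array, 2.48-fold lower, the lowest difference of all genes, with 2808, 2181 and 2793 on the 3 untreated siMLL arrays and 4944 on the untreated siCtrl array and 483 in siGABP KLA. Stat5a, a transcription factor of cytokine receptors, was 1008 on the siCtrl KLA array and 609 on the siMLL KLA array (-0.76) with 195, 213 and 199 on the 3 untreated siMLL arrays and 205 on the untreated siCtrl array, and 1032 in siGABP KLA, so only the siMLL KLA array was low among the KLA arrays. F10, coagulation factor X, was 11601 to 7123 (-0.71, 7789.9 in siGABP KLA). Gtf2b, the general transcription factor TFIIB, was 434 to 276 (-0.72, 243 in siGABP KLA). Ndrg1, a stress-responsive gene, was 1234 to 699.6 (-0.85), and another probe gave -0.59. Cytip, a cytohesin-binding protein of leukocytes, was 1203 to 749 (-0.71), and Rcsd1, which binds the actin capping protein, 1239 to 756 (-0.74).

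Lsp1, an actin-binding protein of leukocytes, and Sirpb1a, a signal regulatory protein, were also lower without KLA. Lsp1 was 2049.7 on the siCtrl KLA array and 1048 on the siMLL KLA array (-0.99), with 1305, 1516 and 1386 on the 3 untreated siMLL arrays and 2787 on the untreated siCtrl array and 1092 in siGABP KLA. Sirpb1a was 476 to 297 (-0.75, untreated -1.05), but a dimmer probe of it gave -0.20. Kctd12b was 295 to 164 (-1.002) and another probe past the filter -0.38. Rnf183, a ubiquitin ligase, was 182 to 121 (-0.75) and Fam107b 1069 to 666 (-0.71). Selenop, a selenium carrier, was 1475 to 926 (-0.69, untreated -0.73). C1qb, a chain of complement C1q, was -0.67 and C1qc -0.51, against -0.07 for C1qa. Of 19 measured scavenger, efferocytosis and complement genes, 14 were below 0, with a median of -0.22, 1 past 1.5-fold lower (C1qb) and 1 higher (Cfb, complement factor B, 2445 to 3991).

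Promoter sequences are shown for the genes with the largest differences that had an entry in the RefSeq promoter set used here. The 3 lowest and 2 highest of them are printed, because the study concerns elements of TLR4-responsive promoters. Of the 15 lowest genes 10 had an entry, and of the 15 highest 9. Scd2, the highest gene, had none. The set left out the promoters of a single chromosome, and why each gene lacked an entry was not examined. A gene without an entry may still have a promoter in RefSeq. Each is 300 bases of GRCm38.p6 from 250 before to 50 after the start, capitals mark motif matches, and positions give the first base of a match from the start. The motifs were searched on both strands. Shares are of the 32841 promoters of that set, from which any with unknown bases were also left out. They were 7.81% for the AP-1 element TGANTCA (N is any base) and 3.44% for the interferon-stimulated response element (GAAA, any 2 bases and GAAA). The NF-κB element (GGGA, any 2 bases and TTCC) stood in 1.47% and CCAAT in 37.4%. The sterol regulatory element TCACNCCAC stood in 1.24% and TATAAA in 13.6%. Dio2 (lower; chr12:90738989-90739288, minus strand) held TATAAA at -30. Mmp13 (lower; chr9:7272264-7272563, plus strand) held TGACTCA at -35, a reverse-strand interferon element at -146 and TATAAA at -16. Slc46a3 (higher; chr5:147894766-147895065, minus strand) held CCAAT at -227, -93 and -62. Il4i1 (lower; chr7:44836038-44836337, plus strand) and Ccl6 (higher; chr11:83593038-83593337, minus strand) held none of these letters in the window. A match is a description and not a bound site.
Dio2: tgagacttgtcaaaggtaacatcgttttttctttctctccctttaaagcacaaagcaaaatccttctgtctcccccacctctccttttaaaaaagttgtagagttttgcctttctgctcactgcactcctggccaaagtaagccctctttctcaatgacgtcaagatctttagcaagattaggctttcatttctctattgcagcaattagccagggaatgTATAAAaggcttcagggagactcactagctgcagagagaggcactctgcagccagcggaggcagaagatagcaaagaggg
Il4i1: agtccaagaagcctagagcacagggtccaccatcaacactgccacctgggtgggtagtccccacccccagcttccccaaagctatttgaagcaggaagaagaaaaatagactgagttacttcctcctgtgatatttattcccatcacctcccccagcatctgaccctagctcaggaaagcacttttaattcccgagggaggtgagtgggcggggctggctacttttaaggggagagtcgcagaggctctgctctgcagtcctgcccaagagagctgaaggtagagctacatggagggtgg
Mmp13: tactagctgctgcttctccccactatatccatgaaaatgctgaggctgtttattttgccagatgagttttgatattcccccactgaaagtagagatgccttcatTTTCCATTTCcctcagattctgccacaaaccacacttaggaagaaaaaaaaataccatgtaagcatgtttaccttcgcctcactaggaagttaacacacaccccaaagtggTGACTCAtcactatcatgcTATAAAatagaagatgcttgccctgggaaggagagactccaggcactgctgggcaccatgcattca
Ccl6: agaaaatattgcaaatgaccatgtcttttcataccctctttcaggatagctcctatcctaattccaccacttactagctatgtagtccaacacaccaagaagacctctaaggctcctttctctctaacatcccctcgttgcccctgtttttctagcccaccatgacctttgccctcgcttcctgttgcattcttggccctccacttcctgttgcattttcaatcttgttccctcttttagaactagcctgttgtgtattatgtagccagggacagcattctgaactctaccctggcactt
Slc46a3: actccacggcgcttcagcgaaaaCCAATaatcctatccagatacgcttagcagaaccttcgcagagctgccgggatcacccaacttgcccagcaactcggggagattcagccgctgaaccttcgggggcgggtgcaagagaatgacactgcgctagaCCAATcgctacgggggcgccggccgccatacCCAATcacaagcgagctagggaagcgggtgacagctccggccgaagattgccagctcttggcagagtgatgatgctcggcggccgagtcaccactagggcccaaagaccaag

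Cytokine genes that define the TLR4 response differed little. Tnf was 17232 on the siCtrl KLA array and 15032 on the siMLL KLA array (-0.20), Il6 2512 to 2579 (0.04) and Il1b 5304 to 5744 (0.12). Cxcl2, a neutrophil chemokine, was 12155 to 10649.7 (-0.19), and Cxcl10, an interferon-induced T cell chemokine, 8219.7 to 8136 (-0.01). Nos2, inducible nitric oxide synthase, was 421 to 379 (-0.16), with another probe at 0.22, Slc7a11, the cystine transporter, -0.10, and Isg20, an interferon-induced exonuclease, -0.14. None of these passed 1.5-fold. Of 27 measured cytokine and chemokine genes, 2 did, Ccl6 and Il1a, both higher, while 16 were below 0 and the median was -0.13. The monocyte chemokine gene Ccl2 was 6524 to 8729 (0.42) and Ccl7 0.30.

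Most NF-κB genes were below 0 by small amounts. Of 29 listed, 26 were on the array and 24 measured, and 21 were below 0 with a median of -0.24 and none past 1.5-fold. Nfkbia, the inhibitor that NF-κB induces against itself, was 3164 to 2257 (-0.49), Bcl3, a nuclear IκB protein, 358 to 269.7 (-0.46), Nfkb2, the p100 subunit, 3122 to 2371 (-0.40) and Relb 594 to 479 (-0.33). The siGABP KLA array read 2007 for Nfkbia, 228 for Bcl3, 1973 for Nfkb2 and 545 for Relb. Each was below siCtrl KLA, so for these genes the lower level was not particular to siMLL. The median of the same list was -0.02 without KLA. Some members were dim untreated, where folds are understated: Bcl3 read 135, 134 and 158 on the siMLL arrays and 136 on siCtrl. Of the 22 measured genes of the TLR4 receptor and its signalling, 15 were below 0, with a median of -0.11, from Tab2, an adaptor of the TAK1 kinase, at -0.52 to Irak3, a negative regulator, at 0.30. Tab2 read 1543 in siCtrl KLA, 1084 in siMLL KLA and 1124 in siGABP KLA. Of 21 measured AP-1, EGR and MAP kinase phosphatase genes, 12 were below 0 with a median of -0.08, and Dusp2, a MAP kinase phosphatase, was the 1 past the limit (441 to 290.1, -0.67).

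Most interferon-stimulated genes were also below 0, all within 1.5-fold. Of 36 measured of 46 listed, 27 were below 0, with a median of -0.22 and none past the limit. Ifi35 was 1478 to 1043 (-0.52), Zbp1, a sensor of nucleic acids in Z form, 493 to 356 (-0.51), and Oas2, which makes the activator of RNase L, 2185 to 1571 (-0.48). In siGABP KLA, Ifi35 read 1498, Zbp1 437 and Oas2 1790, so Ifi35 was near siCtrl KLA and the others below it. Ifit2, an antiviral RNA-binding protein, stood at 16921 to 15794 (-0.10) after KLA, while untreated it was 437, 536 and 470.4 on the 3 untreated siMLL arrays and 947 on the untreated siCtrl array. The median of the list was -0.22 untreated as well. Interferon signalling components (13 of 18 below 0, median -0.11), class I presentation genes (13 of 16, median -0.11) and class II presentation and costimulation genes (10 of 14, median -0.09) had none past the limit.

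The study's own lists of TLR4-responsive genes, chosen on other arrays of such macrophages, lay mostly below 0. Genes of the lists above recur in them, among them Nfkbia, Nfkb2, Relb, Dusp2, Isg15 and Ifi35, so they are not separate observations. Of 130 immediate/early genes 123 were on the array and 97 measured, of which 70 were below 0, 3 past 1.5-fold lower and 1 higher, with a median of -0.17. Of the 119 late genes in the copy of the list used here, which is shorter than the study's, 109 were on the array and 85 measured, of which 58 were below 0, 2 past the limit lower and none higher, with a median of -0.10. Untreated, their medians were -0.02 and -0.04, where members that were dim without KLA have understated differences. The plot of the gene lists places these beside the other lists.

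**Figure D3:**
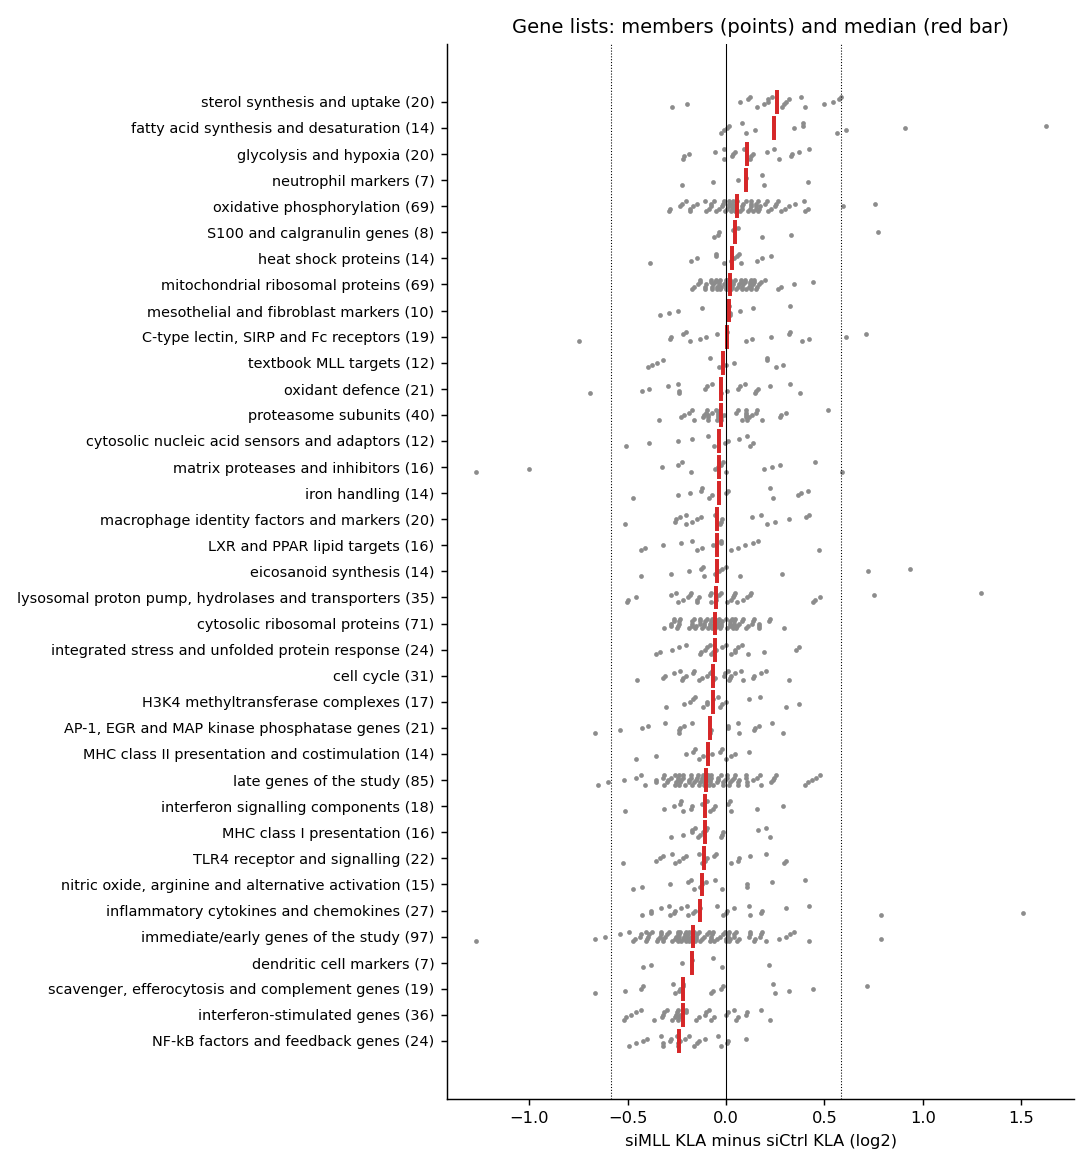
Log2 difference siMLL KLA minus siCtrl KLA of every measured gene (points, spread vertically for clarity) and its median (red bar) in each list with at least 5 measured genes, whose number stands beside the name; dotted lines mark 1.5-fold. The medians of the sterol (0.26) and fatty acid (0.25) lists lie farthest to the right, and those of the NF-κB (-0.24), interferon-stimulated (-0.22) and scavenger and complement (-0.22) lists farthest to the left.

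Genes were next divided by their KLA response in siGABP macrophages, whose arrays are not part of the difference between siMLL KLA and siCtrl KLA. These classes hold members of the lists above, such as Nfkbia and Oas2 among the raised and Scd2 among the lowered genes. Of 419 genes that KLA raised by at least 2-fold there, 291 (69.5%) were lower in siMLL than siCtrl KLA macrophages, with a median of -0.12 (quartiles -0.24 and 0.02). Of 266 genes lowered by at least 2-fold, 169 (63.5%) were higher, with a median of 0.07 (quartiles -0.07 and 0.24). The other 8108 genes had a median of -0.01, with 48.9% above 0. Among the raised genes 10 passed 1.5-fold lower (2.39%) and 3 higher (0.716%), and among the lowered genes 10 higher (3.76%) and 3 lower (1.13%). Of all genes, 0.353% passed it lower and 0.819% higher. Across all genes the difference correlated with the siGABP response at r = -0.21 (Spearman -0.25), a description over genes that share the same arrays and are not replicates. Without KLA the raised and lowered genes had median siMLL differences of -0.04 and -0.01. Raised genes that were dim untreated have understated differences there.

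**Figure D4:**
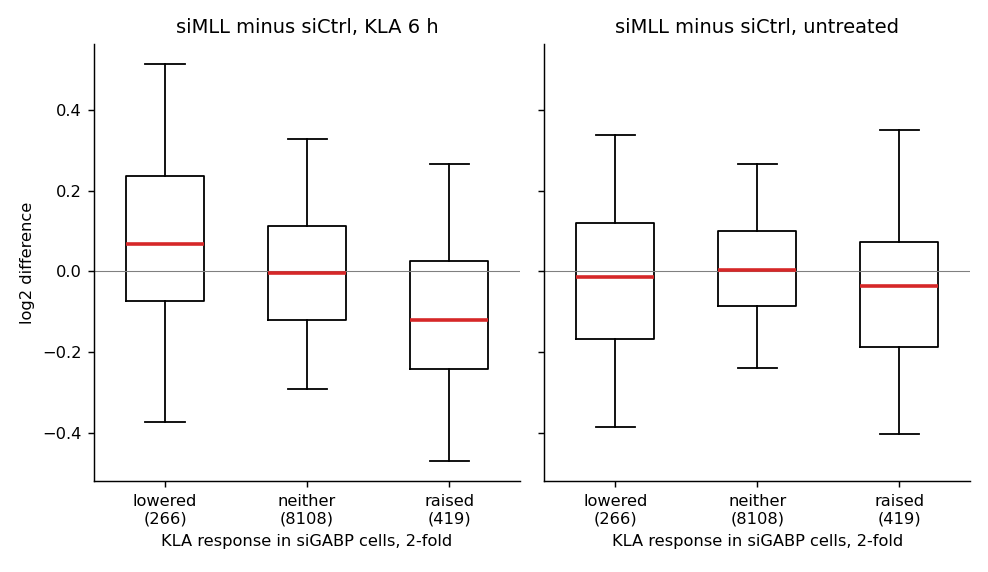
Log2 difference siMLL minus siCtrl after KLA (left) and untreated (right) of genes that KLA raised, lowered or left within 2-fold in siGABP macrophages. Boxes span the quartiles with a line at the median; whiskers reach the 5th and 95th percentiles, and the numbers of genes stand in parentheses. The raised genes have a median of -0.12 and the lowered genes 0.07 after KLA.

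The siMLL differences with and without KLA share no array and can be set side by side. Untreated, the mean of the 3 siMLL arrays stood at least 1.5-fold above siCtrl for 51 genes (0.58%) and below for 30 (0.341%), 81 in all (0.921%), and single siMLL arrays against siCtrl gave 91, 105 and 104 genes (1.03%, 1.19% and 1.18%). A single array against a single array thus gave about as many genes without KLA as the 103 with it. The 2 differences correlated across genes at r = 0.50 (Spearman 0.42). Of the 72 genes higher after KLA, 71 were on the same side untreated, 68 of them on all 3 siMLL arrays, and 27 also passed 1.5-fold, which is 37.5% of the 72 and 52.9% of the 51. Their median was 0.66 after KLA and 0.47 without. Of the 31 genes lower after KLA, 22 were on the same side untreated, 18 on all 3 arrays, and 6 also passed 1.5-fold (19.4% of the 31, and 20% of the 30), with medians of -0.69 and -0.29. Of all genes, 50.5% were above 0 untreated.

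**Figure D5:**
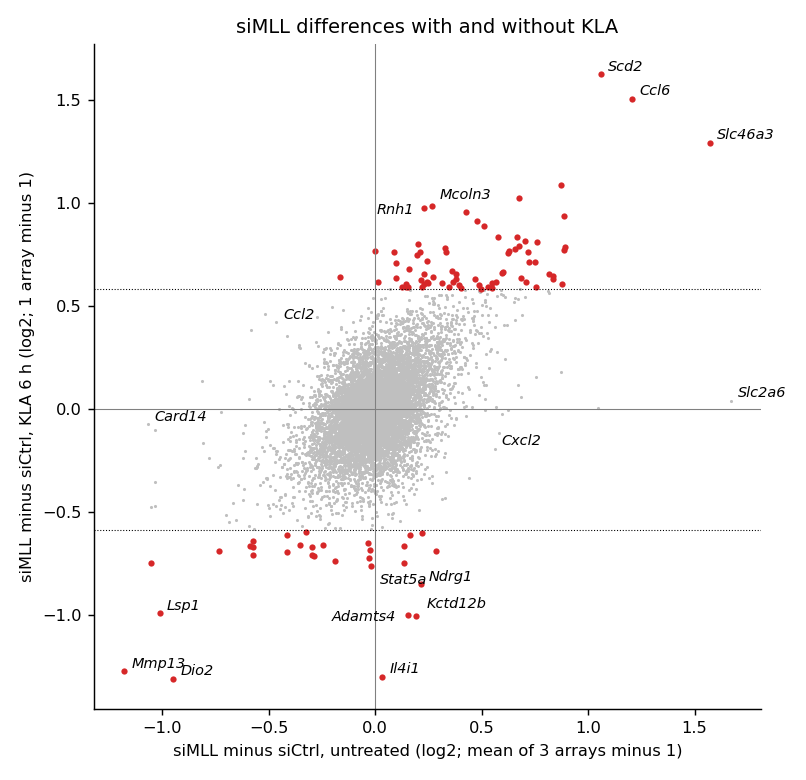
Log2 difference siMLL minus siCtrl after KLA against the same difference without KLA for 8793 genes, with the 103 genes past 1.5-fold after KLA in red and the limits dotted. Higher genes such as Scd2, Ccl6 and Slc46a3 lie to the right of 0, and Il4i1, Adamts4 and Kctd12b lie near or right of 0 although they are lower after KLA. Il4i1 and Adamts4 were dim untreated.

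Some genes differed far more in 1 of the 2 states. Slc2a6, a member of the glucose transporter family, differed by 1.67 untreated and 0.04 after KLA, with intensities of 12732 to 13099.6 on the KLA arrays and 1699, 1569.97 and 1679.5 on the 3 untreated siMLL arrays and 541 on the untreated siCtrl array. Angptl4, a secreted inhibitor of lipoprotein lipase, differed by -0.81 untreated and 0.14 after KLA, and another probe gave -0.07 after KLA. Thbs1, the matrix protein thrombospondin, was -0.52 untreated and 0.46 after KLA (144 to 186), and another probe gave 0.17 after KLA. Ncoa4, the ferritin receptor of autophagy, was -0.58 untreated and 0.38 after KLA, and another probe gave 0.15 after KLA. That 0.38 was smaller than the range of 0.62 between the 3 untreated siMLL arrays for Ncoa4. Card14, a scaffold protein of NF-κB signalling, was -1.07 and -0.07. In the other direction, Il4i1 was 0.03 untreated and -1.30 after KLA, Kctd12b 0.19 and -1.002, Adamts4 0.15 and -1.001, and Ndrg1 0.22 and -0.85. Untreated, Il4i1 and Adamts4 read near the median of all deposited values (139.5), where a difference can hardly show. Card14 and Angptl4 were as dim after KLA. These were named because the 2 differences are farthest apart, which gives no support to the gap itself.

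Against the same siCtrl KLA array, the siGABP KLA array differed by 1.5-fold for 341 genes (3.88%). Both comparisons rest on that 1 control array, so their likeness was not assessed and only single values are set side by side above. Markers of cells other than macrophages had few measured members: 7 of 15 neutrophil markers (median 0.10), 7 of 13 dendritic cell markers (-0.17), 1 of 12 B cell markers (0.15), 4 of 17 T and natural killer cell markers (-0.08), 4 of 15 for mast cells, eosinophils and basophils (0.00), 10 of 16 mesothelial and fibroblast markers (0.02) and 3 of 8 erythroid markers (-0.18). None of them passed 1.5-fold. The mean log2 level of the neutrophil markers was 7.92 on the siCtrl KLA and 8.01 on the siMLL KLA array, that of the mesothelial and fibroblast markers 8.43 and 8.39, and that of the 20 measured macrophage markers 9.77 and 9.75. Their part in the differences above was not tested.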

How the data were processed

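RNA of thioglycollate-elicited peritoneal macrophages was hybridised to Illumina mouse arrays. The deposited values are intensity values on a linear scale for 23978 probes on 8 arrays, for which the submitters' processing notes name BeadStudio 1.5.1.3. The lowest was 68.5, the median 139.5 and the highest 62999. Sorted, the values of all arrays were the same (largest difference 0), as they are after quantile normalization. A further deposited table held 16 columns under running sample numbers that match no label, and these were not used here. Depth has no meaning for arrays, and the number of arrays limits the precision.

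Background was corrected with normexp of limma 3.58.1 (R 4.3.3, offset 50), followed by quantile normalization and log2. Background that remains in both terms makes the fold of a dim gene too small. Probes with a mean log2 over the 8 arrays above the median of all probes (6.73) were kept (11989). A single gene was known for 20917 probes (20903 by Entrez identifier), several genes for 1 probe and no gene for 3060. The brightest of the kept probes represented each of 8793 genes, of which 1567 had several. The KLA difference is the log2 difference of 1 array from 1 array, and no test was made. Past the fold means at least 1.5-fold. The untreated difference is the mean of 3 siMLL arrays minus 1 siCtrl array. The script was tested on simulated data with less noise than between the replicate arrays here. That checked the code and not how reliable a call past 1.5-fold is.

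The named genes, 176 in all, were set by rule, and not all of them have a value in the text. They included the 15 highest and 15 lowest whose difference exceeded the range of the untreated siMLL triplicate. From each of 42 gene lists except those of cell markers came up to 4 members with the largest size. Standard TLR4 targets and all measured genes of the H3K4 methyltransferase list and of GABP were included. So were the 5 genes each way whose KLA and untreated differences were farthest apart. Cers2, Cerk, Ccl7, C1qa, Fdft1, Srebf2 and Irak3 were named after their values were seen, and macrophage markers and genes at the fold limit were added. Members and lists were chosen with earlier results of these data known, and the immediate/early and late lists are the study's. The division by KLA response in siGABP macrophages was chosen after seeing the data. Promoters came from RefSeq (GRCm38.p6), with those of a single chromosome left out. Python 3.11.15 with pandas 2.3.3 was used.

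Alternatives were no background correction, an offset of 16, no filter or a filter on the 2 KLA arrays, the mean of all probes of a gene, median centring, folds of 1.25 and 2, class limits of 1.5-fold and 4-fold, and leaving out each untreated siMLL array.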

Additional observations from a re-analysis of the deposited data

Results flagged for a closer look

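Of the 176 named genes, 23 stood on 1 side of siCtrl in the KLA pair while all 3 untreated siMLL arrays stood on the other side of the untreated siCtrl array. For 18 of the 23 the KLA difference was larger than the range of the triplicate, which 47.2% of all 8793 genes also met. The 15 highest and 15 lowest genes had been required to meet it. Some of the 176 were named because their KLA and untreated differences were farthest apart. The share of all genes that stood on opposite sides was not counted, so the 23 do not show how common this was. The gap between the 2 differences was not tested, because the KLA side has 1 array a group. Several genes, among them Ciita, Ptgs2, Ccne1, Adamts4 and Il6, read near the median of all deposited values (139.5) untreated. For such genes a few units of intensity set the untreated side. Values are log2 differences, siMLL minus siCtrl.

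Above 0 after KLA and below 0 untreated were Thbs1 (0.46 after KLA, -0.52 untreated), Ccl2 (0.42 after KLA, -0.46 untreated), Ncoa4 (0.38 after KLA, -0.58 untreated), Angptl4 (0.14 after KLA, -0.81 untreated), Pagr1a (0.12 after KLA, -0.093 untreated), Il6 (0.038 after KLA, -0.096 untreated) and Dot1l (0.00096 after KLA, -0.17 untreated). The first 4 of these, a matrix protein, a monocyte chemokine, a ferritin receptor and a lipoprotein lipase inhibitor, had the widest gaps, and Dot1l and Il6 were close to 0 after KLA.

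Below 0 after KLA and above 0 untreated were Ciita (-0.17 after KLA, 0.11 untreated), Cxcl2 (-0.19 after KLA, 0.56 untreated), Tnf (-0.20 after KLA, 0.27 untreated), Relb (-0.33 after KLA, 0.15 untreated), Chac1 (-0.33 after KLA, 0.44 untreated), Hoxc8 (-0.38 after KLA, 0.063 untreated), Klf4 (-0.43 after KLA, 0.33 untreated) and Ptgs2 (-0.43 after KLA, 0.07 untreated). This set held the inflammatory genes Cxcl2, Tnf, Relb and Ptgs2, none past 1.5-fold. Further genes of this kind were Ccne1 (-0.45 after KLA, 0.087 untreated), Zbp1 (-0.51 after KLA, 0.078 untreated), Vnn3 (-0.60 after KLA, 0.22 untreated), Cdk5r1 (-0.61 after KLA, 0.16 untreated), Rnf183 (-0.75 after KLA, 0.14 untreated), Ndrg1 (-0.85 after KLA, 0.22 untreated), Adamts4 (-1.001 after KLA, 0.15 untreated) and Kctd12b (-1.002 after KLA, 0.19 untreated). Of these, Vnn3, Cdk5r1, Rnf183, Ndrg1, Adamts4 and Kctd12b were past 1.5-fold lower after KLA.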

How the results depend on the processing

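The medians of the KLA-raised and KLA-lowered genes and the correlation of the KLA and untreated differences kept their sign under the alternatives run for them; the correlation with the siGABP response and the median of the other genes were not recomputed. Of 176 named genes, 2 changed sign, Nos2 (to 0.027) and Gabpa (to 0.059), both with the mean of all probes. Of 42 list medians, 40 to 42 kept their sign. Without background correction 46 genes were higher and the correlation of the KLA and untreated differences was 0.54. With an offset of 16, 130 genes were higher and 57 lower, the correlation was 0.45 and the median of the KLA-raised genes -0.11. Without a filter 6385 genes exceeded the triplicate range and the correlation was 0.34. Median centring gave the KLA-raised genes -0.11. At the looser fold limit 478 genes were higher and 370 lower, and at 2-fold 5 and 5. Classes at 1.5-fold gave the KLA-raised genes -0.10, and classes at 4-fold the KLA-lowered genes 0.13. Leaving out 1 untreated siMLL array gave 5362 to 5808 genes past the range and correlations of 0.48 to 0.50. A range over fewer arrays is smaller by construction.

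Of the 47 named genes past 1.5-fold, 39 remained so without background correction, 45 with the mean of all probes and 47 under the other alternatives. No paired analysis was possible because only the siMLL untreated group carries replicate numbers. The KLA difference rests on 1 array a side, and dim genes have understated folds.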

Other observations

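Further genes past 1.5-fold, chosen for mention after their values were seen, belong to groups not yet described. Among chemokines outside the cytokine list, Cxcl5, a neutrophil attractant, was 336 on the siCtrl KLA array and 547 on the siMLL KLA array (0.77, 260.1 in siGABP KLA), and Cxcl13, a B cell attractant, 237 to 351 (0.64, 219 in siGABP KLA). For these 2 genes the siMLL KLA array was the highest of the 3 KLA arrays and the siGABP KLA array the lowest. P2ry6, a receptor for uridine diphosphate, was 175 to 266 (0.72, untreated 0.75), and Lair1, an inhibitory collagen receptor of leukocytes, 196 to 288 (0.64). Gabarap, an ATG8 protein of autophagosomes, was 4308 to 6578 (0.61) and Atg10, the conjugating enzyme for ATG12, 251 to 408 (0.78). Vdac2, a channel of the outer mitochondrial membrane, was 1733 to 2712 (0.66), and Oxct1, an enzyme of ketone body use, 1165 to 1773 (0.62).

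Among the lower genes, Gadd45b, a stress-induced gene, was 3368 on the siCtrl KLA array and 2146 on the siMLL KLA array (-0.66, 2107 in siGABP KLA), with 615, 468 and 536 on the 3 untreated siMLL arrays and 675 on the untreated siCtrl array. Bcl2l11 (Bim), a pro-apoptotic BCL2 family member, was 359 to 248 (-0.60), and Pdcd4, an inhibitor of translation initiation, 272 to 181 (-0.69). The siGABP KLA array read 245 for Bcl2l11 and 178 for Pdcd4, below siCtrl KLA for both. Glycolysis and hypoxia genes had 14 of 20 measured members above 0 and a median of 0.11, with none past 1.5-fold. Of 12 measured textbook MLL targets 5 were above 0 and 7 below, with a median of -0.02 and none past the limit. The 31 measured cell cycle genes had a median of -0.06, again with none past it.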
